A study of Mus musculus with 25 samples.

Results

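The contrast described here set the brain cortex of mice given (-)-vestitol and salviolone together against the mean, on a log scale, of the mice given each compound alone. It used 15 of the 25 RNA-seq libraries of the study, chosen by their treatment labels: 5 from the combination, 5 from vestitol and 5 from salviolone. All 15 came from male B6C3 mice aged 6 months that carried APPswe and PSEN1dE9, the APP/PS1 model of amyloid deposition, in which the mouse Prnp promoter drives both transgenes. The compounds were injected into the peritoneum daily for 3 months: 5 mg/kg of vestitol or of salviolone for the single compounds, and 2.5 mg/kg of each in the mixture, so that the total dose was 5 mg/kg in all 3 groups. The other libraries were 5 from vehicle-treated mice of the same genotype and strain, the model control, and 5 from vehicle-treated wild type C57BL/6J males of the same age. Because the dose of each compound was lower in the combination, the contrast asks whether the mixture departed from the average of its components at an equal total dose. The labels number the samples n1 to n5 in a group and do not say that each is a separate mouse, so p-values measure the spread between these samples, which may be in part technical.

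(-)-Vestitol is an isoflavan of legumes and salviolone a diterpenoid of sage roots. The APP/PS1 cortex accumulates amyloid-beta, which microglia surround and take up. Of the 5 genes that head this contrast, Magel2 encodes a MAGE-family protein of the imprinted Prader-Willi region that acts in endosomal protein recycling and is active mainly in the hypothalamus. Glp1r encodes the receptor of glucagon-like peptide 1, which signals through cAMP. Vat1 encodes a membrane protein of synaptic vesicles, Rgs6 a regulator that shortens G-protein signalling, and Olfml2b an extracellular protein with an olfactomedin domain.

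The start-proximal promoters of these 5 genes are shown because the genes were given with the contrast, chosen with earlier results of these data known. Each run is the 150 bases before the RefSeq gene start in build GRCm38.p6, read 5′ to 3′ on the gene's strand, and all 5 symbols matched an entry. Capitals mark the GC box GGGCGG, bound by Sp-family factors, and the cAMP-response half-site TGACG, on either strand; the overlapping GC boxes of Glp1r run together.
Magel2: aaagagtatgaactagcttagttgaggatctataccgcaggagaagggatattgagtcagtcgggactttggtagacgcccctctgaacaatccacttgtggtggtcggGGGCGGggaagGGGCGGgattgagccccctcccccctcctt
Glp1r: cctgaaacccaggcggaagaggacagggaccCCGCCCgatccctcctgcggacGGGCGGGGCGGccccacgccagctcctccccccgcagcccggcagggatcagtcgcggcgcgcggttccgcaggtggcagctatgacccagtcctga
Vat1: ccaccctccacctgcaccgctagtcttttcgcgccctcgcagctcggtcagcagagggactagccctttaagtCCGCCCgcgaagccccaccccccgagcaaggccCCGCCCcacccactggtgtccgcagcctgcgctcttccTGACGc
Rgs6: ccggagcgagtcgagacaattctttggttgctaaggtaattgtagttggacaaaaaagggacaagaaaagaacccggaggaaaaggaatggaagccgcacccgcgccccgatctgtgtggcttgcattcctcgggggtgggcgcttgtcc
Olfml2b: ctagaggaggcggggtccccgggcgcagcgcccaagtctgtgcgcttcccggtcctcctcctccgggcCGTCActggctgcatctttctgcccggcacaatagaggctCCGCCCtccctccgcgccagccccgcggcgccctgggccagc

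In GRCm38.p6 these windows are chr7:62376829-62376978 on the + strand (Magel2), chr17:30901717-30901866 on the + strand (Glp1r), chr11:101466200-101466349 on the − strand (Vat1), chr12:82617349-82617498 on the + strand (Rgs6) and chr1:170644382-170644531 on the + strand (Olfml2b). The half-site TTGGC of NFI factors was searched first, because Nfix is among the lowered genes, and it was in none of the 5 windows, against 29% of the 32851 RefSeq promoters. The other 2 motifs were added after that search. The GC box was in 4 of the 5 windows, against 28.6% of all promoters, with 3 matches in Glp1r, 2 each in Magel2 and Vat1, 1 in Olfml2b and 0 in Rgs6. The cAMP-response half-site was in 2 of the 5, Vat1 and Olfml2b, against 13.3% of all promoters. The 5 windows were 54.7% (Rgs6) to 74% (Glp1r and Olfml2b) G or C, and the shares over all promoters were not matched for this. A match describes the letters of the window only, and raised and lowered genes both held the GC box.

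The tissue label was checked against marker genes before the results. Slc17a7, the vesicular glutamate transporter of cortical excitatory neurons, was at 1050 ± 159 CPM (the count scaled to the normalised library total; SD, n = 5) with the combination, 1240 ± 99.3 with vestitol and 1290 ± 57.8 with salviolone, with no library of the 3 groups under 839 CPM. Markers of the hypothalamus and basal forebrain, which the cortex label does not include, differed between the groups. The summed level of 30 such genes was 647.6 to 1126 CPM in the combination libraries, 180.8 to 298.8 with vestitol and 190.6 to 234.8 with salviolone. As a score, the mean log2 CPM of the 30, it was 1.88 to 3.38 with the combination and −0.41 to 0.68 in the 10 single-compound libraries, with no overlap. The vehicle groups lay from −0.08 to 1.45 (model control) and from −0.10 to 2.48 (wild type). At 0 were 0 or 1 of the 30 genes in each combination library, 2 to 8 with vestitol and 1 to 5 with salviolone. In bulk tissue, fewer cells of a type and less RNA per cell cannot be told apart. The groups do not overlap in this score, so treatment and the share of such tissue cannot be told apart either, and results with the score in the fit are given beside those without it.

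In the 15 libraries, 59376320 to 109776852 reads were counted per library, with the 3 deepest, at 100379303 or more, all in the combination. Of 21720 genes 16515 had enough counts to be tested. With edgeR's quasi-likelihood test at a Benjamini-Hochberg adjusted p of 0.05, 3972 genes (24.1%) differed between the combination and the mean of both compounds. Of these, 2126 (12.9%) were higher and 1846 (11.2%) lower with the combination. Their log2 fold changes had a median size of 0.38. More than 2-fold changes were found for 380 raised and 162 lowered genes. In 927 genes (5.61%) all 5 combination libraries lay above all 10 single-compound libraries, and in 755 (4.57%) all 5 lay below. With the 3 deepest libraries left out, 2016 genes were called, 1167 raised and 849 lowered.

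With the hypothalamus score as a covariate in the fit over 25 libraries, edgeR called 0 genes. There 1207 genes had an unadjusted p under 0.05, the smallest adjusted p was 0.317, and the median log2 size of the 3972 genes went from 0.38 to 0.17, with 85.3% keeping their sign. Fitted on the 15 libraries alone with the same covariate, 114 genes were called, 79 raised and 35 lowered, and 94 of them were also called in the same direction without it. Of the 3972 genes 3942 had a value in that fit, with a median log2 size of 0.30 and 86.4% keeping their sign. An unadjusted p under 0.05 was found there for 1745 genes (edgeR). DESeq2 was not run with the covariate. On the 15 libraries the score ranges of the combination and of the other 10 do not meet, so that fit extends the relation beyond the values seen, and in the fit over 25 only wild type libraries overlap the combination.

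**Figure D1:**
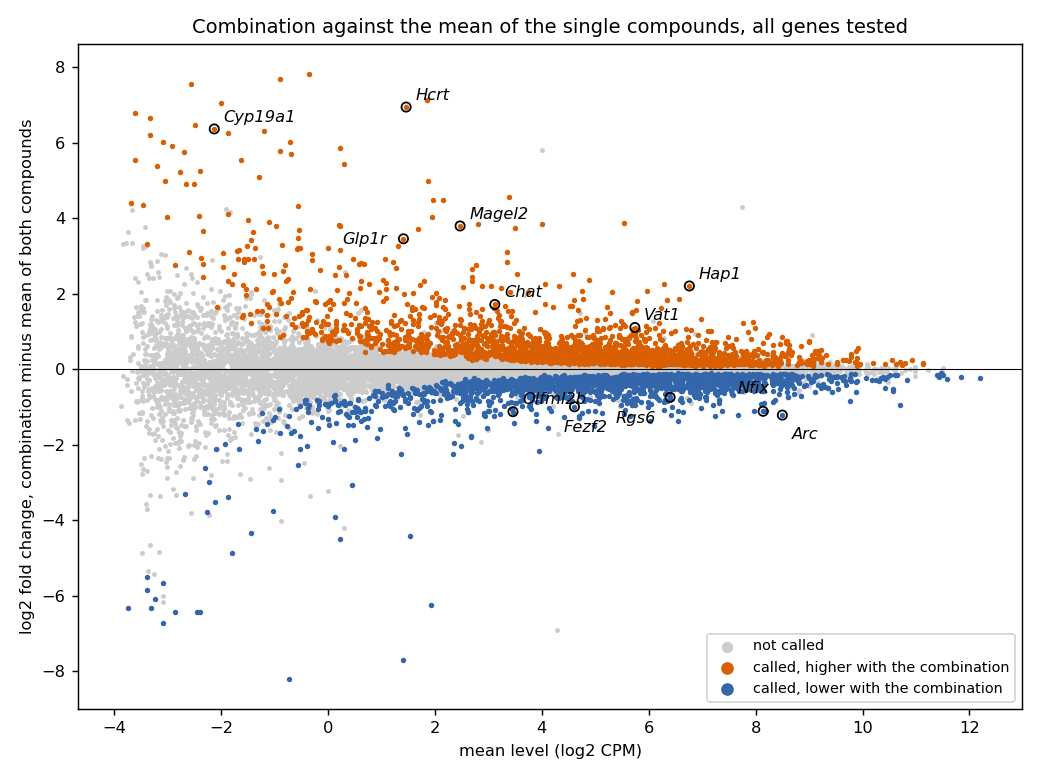
Each point is 1 of the 16515 genes tested, by its mean level (log2 CPM, horizontal) and its log2 fold change of the combination against the mean of both compounds (vertical). The 2126 raised genes are orange, the 1846 lowered genes blue and the others grey, and Hcrt (6.95) and Cyp19a1 (6.37) are among the largest positive values.

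Among the 5 leading genes Magel2, Glp1r and Vat1 rose with the combination and Rgs6 and Olfml2b fell. Magel2 (mm39, chr7:62026758-62031388) was at 10.9, 13, 8.82, 20.4 and 18 CPM in the 5 combination libraries. It was at 0.62, 1.23, 1.15, 2.46 and 0.418 CPM with vestitol and at 0.881, 0.569, 1.14, 0.75 and 1.12 CPM with salviolone. All 5 combination values lay above the other 10. The log2 fold change was 3.80 ± 0.36 (SE; adjusted p = 1.78e-06, edgeR). With the hypothalamus score in the fit it was 1.53 ± 0.38 (adjusted p = 0.454).

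Glp1r (mm39, chr17:31120791-31159765) showed the same separation. Its level was 4.34, 6.74, 4.35, 7.67 and 13.5 CPM with the combination, where library 5 was highest. With vestitol it was 0.542, 1.12, 0.491, 0.68 and 0.496 CPM, and with salviolone 0.647, 0.598, 0.467, 0.614 and 0.979 CPM. Both single-compound groups thus stayed near or under 1.12 CPM in every library. The log2 fold change was 3.46 ± 0.34 (adjusted p = 1.78e-06, edgeR), and 1.16 ± 0.43 (adjusted p = 0.584) with the hypothalamus score.

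Vat1 (mm39, chr11:101349571-101357056) had the smallest adjusted p of all genes. It was at 74.1, 84.1, 68.0, 98.1 and 93.6 CPM with the combination, at 34.1, 38.8, 39.9, 45.2 and 37.6 CPM with vestitol, and at 36.2, 40, 39.1, 40.4 and 37.0 CPM with salviolone. The lowest combination library exceeded the highest of the other 10. The log2 fold change was 1.11 ± 0.098 (adjusted p = 6.33e-07, edgeR), and 0.41 ± 0.10 (adjusted p = 0.454) with the score.

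Rgs6 (mm39, chr12:82635066-83208830) was lower with the combination, at 52.7, 56.9, 71.4, 56.7 and 54.7 CPM. With vestitol it was at 91.6, 104.0, 97.7, 87.1 and 105.0 CPM, and with salviolone at 98.9, 96.2, 98.3, 99.8 and 95.5 CPM. Combination library 3 was the highest of its group and still below the other 10. Its log2 fold change was −0.74 ± 0.079 (adjusted p = 2.01e-06, edgeR), and −0.33 ± 0.11 (adjusted p = 0.578) with the score.

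Olfml2b (mm39, chr1:170472101-170510358) was at 6.37, 7.51, 6.77, 6.38 and 6.25 CPM with the combination. It was at 14.7, 13.9, 15, 11 and 14.4 CPM with vestitol and at 16.4, 15.3, 13.6, 16.6 and 14.0 CPM with salviolone, so the groups did not overlap. Its log2 fold change was −1.12 ± 0.12 (adjusted p = 2.17e-06, edgeR), and −0.52 ± 0.18 (adjusted p = 0.578) with the score.

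**Figure D2:**
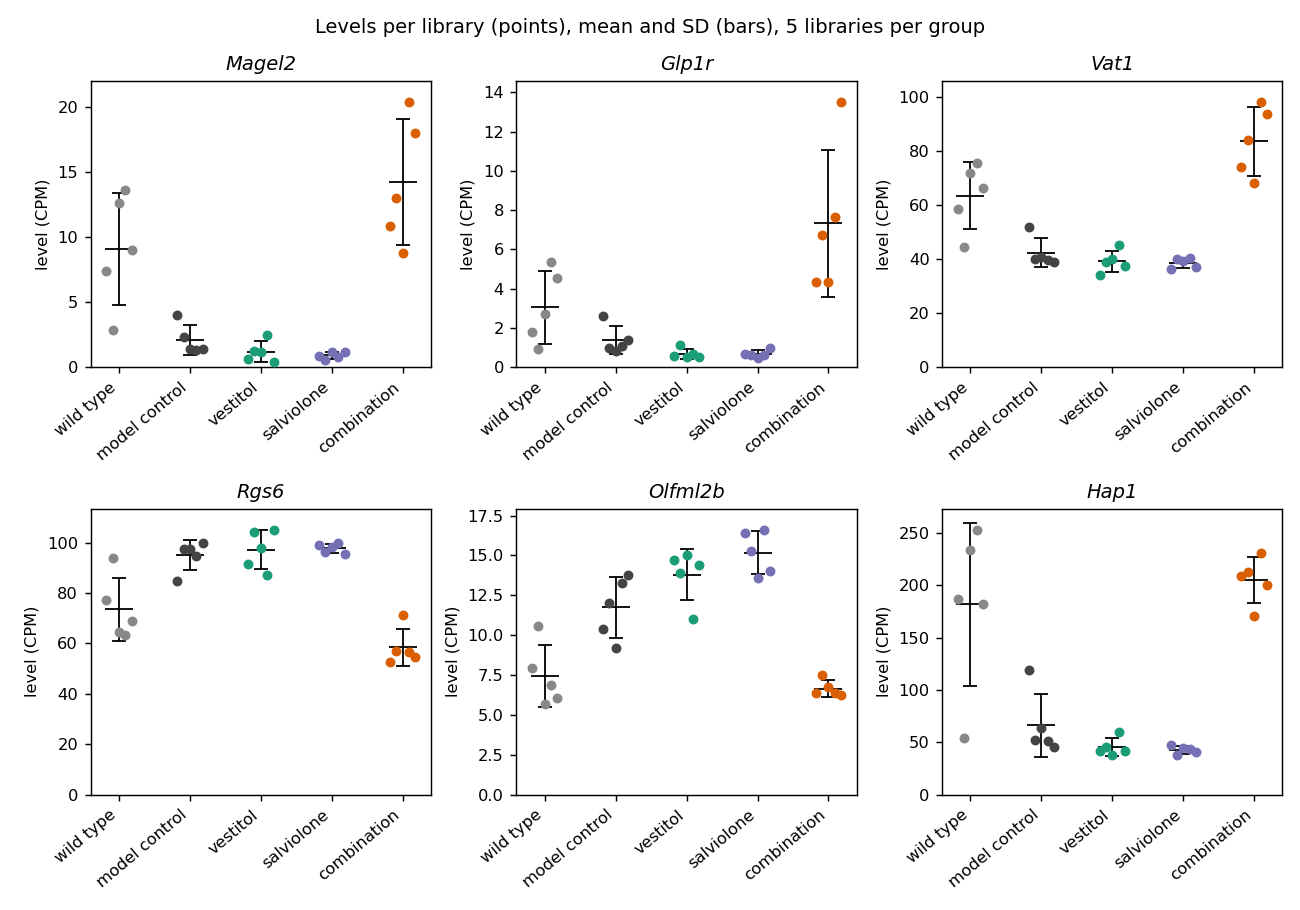
Level in CPM (vertical, linear from 0) of 6 genes in each of the 5 libraries of each group (points), with the group mean and SD (bars). In every panel the 5 combination points lie apart from all 10 single-compound points, above them for Magel2, Glp1r, Vat1 and Hap1 and below them for Rgs6 and Olfml2b; the wild type points spread widely.

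The combination was also set against each group alone, in comparisons that share the combination libraries. Against vestitol, 21.9% of genes were called and the log2 fold changes were 3.60 for Magel2, 3.46 for Glp1r, 1.10 for Vat1, −0.73 for Rgs6 and −1.05 for Olfml2b. Against salviolone, 17.9% were called and the values were 3.99, 3.47, 1.12, −0.74 and −1.19 in the same order. Against the model control, 15% were called and the values were 2.76, 2.42, 0.98, −0.70 and −0.82; all 5 genes were called in all 3 comparisons.

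Few or no genes passed the test between the single compounds and the model control. Vestitol against the model control called 0% of genes in edgeR, with 1249 at an unadjusted p under 0.05 and 44 called by DESeq2. Salviolone against the model control called 4 genes (0.0242%), and DESeq2 116. The mean of both compounds against the model control called 0%, with 1469 at an unadjusted p under 0.05 and 35 by DESeq2. For Magel2 that last log2 difference was −1.03 ± 0.37 (adjusted p = 0.415, edgeR), for Glp1r −1.04 ± 0.35 (adjusted p = 0.387) and for Rgs6 0.04 ± 0.076 (adjusted p = 0.934). Part of the size of the Magel2 and Glp1r contrasts thus lies in single-compound levels below the model control, at 2.09 ± 1.16 CPM for Magel2 and 1.37 ± 0.711 for Glp1r, a step that did not pass the test.

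Beyond these 5, the raised genes with the smallest adjusted p values included the following. Gad2, an enzyme that makes the inhibitory transmitter GABA, was at 315 to 415 CPM with the combination and at 178 to 261 CPM in the other 10 (log2 fold change 0.81 ± 0.086). Ache, acetylcholinesterase, was at 58.9 to 90.1 CPM against 34.0 to 44.8 CPM (0.82 ± 0.087). Cd200, a neuronal ligand that restrains microglia, was at 94.5 to 107 CPM against 57.1 to 70.2 CPM (0.64 ± 0.067).

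Susd2, a membrane protein, was nearly constant within the combination, at 24.5 to 26.3 CPM, against 11.1 to 16.3 CPM (0.91 ± 0.093). Asic4, of the acid-sensing ion channel family, was at 32.7 to 43.6 CPM against 14.7 to 24.6 CPM (0.91 ± 0.096). Tmem130, a transmembrane protein, rose by 1.11 ± 0.11 and the orphan receptor gene Gpr165 by 1.27 ± 0.14 on the log2 scale. Smarcd3, a subunit of BAF chromatin remodelling complexes, rose by 0.60 ± 0.065 and the deubiquitinase gene Usp11 by 0.62 ± 0.069. In each of these the 5 combination libraries lay above the other 10.

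The lowered genes of smallest adjusted p included the following. Nfix, an NFI-family transcription factor, was at 146, 182, 196, 148 and 164 CPM with the combination, against 330 to 390 CPM with vestitol and 346 to 389 CPM with salviolone. No combination library came near the other groups. Its log2 fold change was −1.11 ± 0.12 (adjusted p = 2.12e-06, edgeR). With the hypothalamus score it was −0.52 ± 0.15 (adjusted p = 0.562) over 25 libraries and −1.10 ± 0.21 (adjusted p = 0.0258) over the 15 alone.

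Satb1, a chromatin organiser of cortical interneurons, was at 66.6 to 94.8 CPM against 137 to 175 CPM in the other 10 (−1.01 ± 0.12). Nrep was at 24.4 to 32.0 CPM against 47.3 to 78.1 CPM (−1.07 ± 0.12). Kcnk4, the potassium channel TRAAK, was at 8.73 to 12.8 CPM against 20.4 to 26.8 CPM (−1.09 ± 0.12). These 3 genes fell to about the same degree, without overlap.

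Dnajc21, a co-chaperone of ribosome assembly, fell by 1.10 on the log2 scale and Cemip, which takes part in hyaluronan breakdown, by 0.89. Efr3a, which anchors a phosphatidylinositol kinase at the plasma membrane, fell by 0.82 and Cds1, an enzyme of phosphatidylinositol synthesis, by 0.67. The changes of Mb21d2 (−0.52) and of the kinase gene Rock2 (−0.47) were smaller. Rock2 was at 140 to 162 CPM with the combination, 211 to 251 CPM with vestitol and 169 to 200 CPM with salviolone, so here the single compounds also stood apart from each other.

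All 32 genes named by the rule were called under each of 17 alternative analyses without tissue scores, and when any 1 of the 15 libraries was left out. They were given with the contrast or chosen for small adjusted p in it, so these refits are no separate support for them. Once the score was added in 25 libraries, 0 of all genes were called and so none of the 32 (adjusted p 0.454 to 0.67, edgeR). With it in 15 libraries 4 of the 32 were called: Hap1, Nrep, Nfix and Cds1. Hap1 is itself a gene of the score, so its own level is part of that covariate. All 32 kept their direction in both fits with the score.

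**Figure D3:**
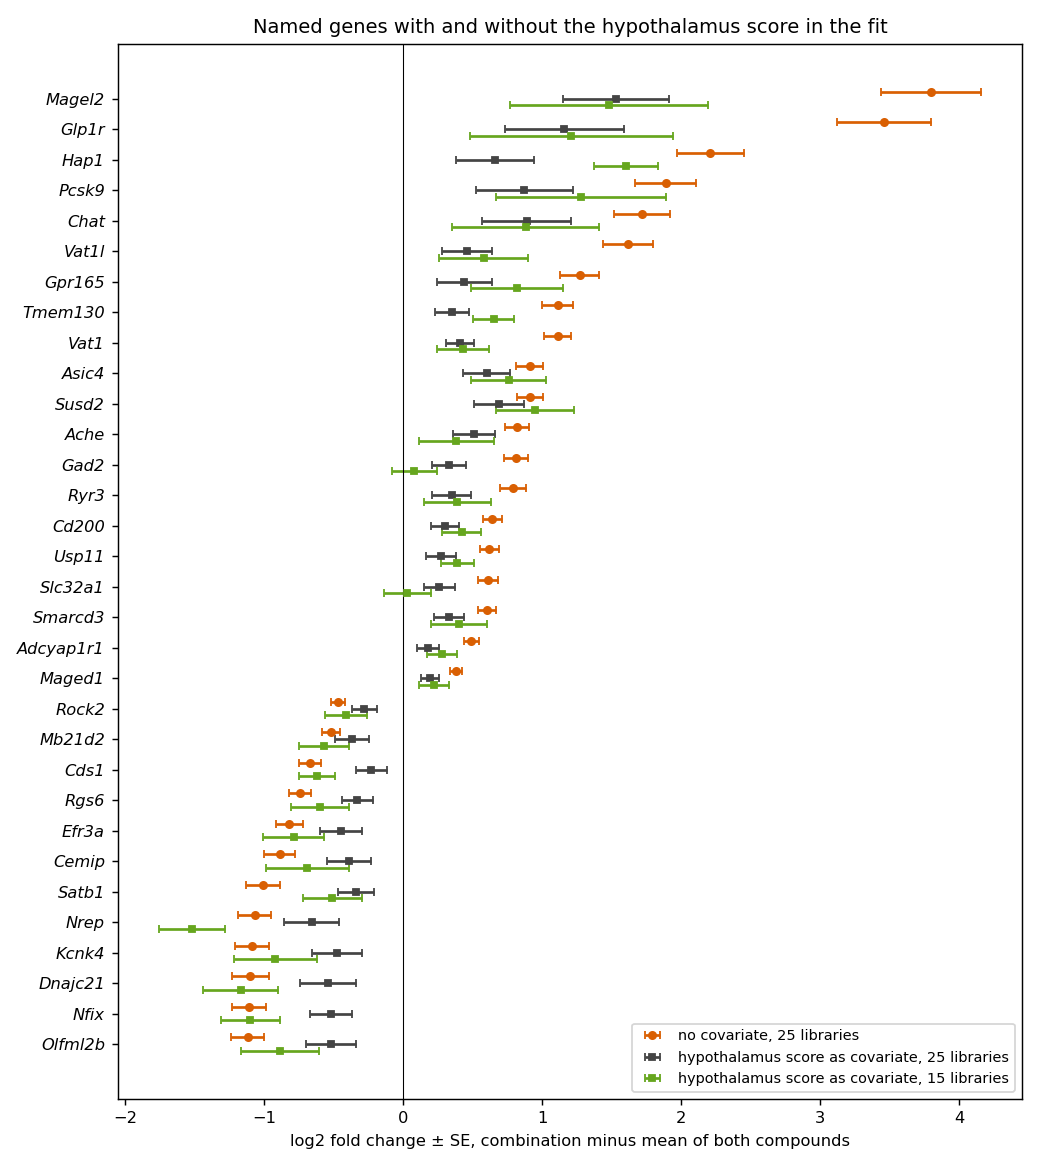
Log2 fold change with its SE (horizontal) of the 32 named genes, without a covariate (orange) and with the hypothalamus score in the fit over 25 libraries (grey) or over the 15 libraries (green). Points with the score keep their side of 0 and lie nearer to it for Magel2, from 3.80 to 1.53, while Nfix goes from −1.11 to −0.52 over 25 libraries and to −1.10 over 15.

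Gene lists for pathways and cell types are described by how many members were called, against 12.9% raised and 11.2% lowered over all genes. Without the 3 deepest combination libraries, calls over all genes fell from 2126 to 1167 raised and from 1846 to 849 lowered. A list's count in that setting is to be read beside these totals. Of the 30 genes of the hypothalamus and basal forebrain list 24 were raised and 1, Npy1r, lowered, with a median log2 fold change of 2.32, or 2.26 with Ghrh at its lower bound, against 0.0052 over all genes. The lowered call was lost without combination library 1 or 4 and without the 3 deepest combination libraries. Some neuropeptide genes varied widely within the combination. Hcrt, which encodes orexin, was at 0, 0.925, 3.48, 21.0 and 27.6 CPM with the combination and at most 0.631 CPM elsewhere in the 10. Pmch, which encodes melanin-concentrating hormone, was at 0.101, 4.47, 11.6, 21.8 and 27.8 CPM, against at most 0.342 CPM. Combination library 1 thus overlapped the single compounds for both, and libraries 4 and 5 were highest.

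Otp, a transcription factor of neuroendocrine neurons, was at 1.79 to 5.52 CPM with the combination and at 0 to 0.245 CPM in the others. Ghrh, growth hormone-releasing hormone, had 0 counts in all 10 single-compound libraries and 0.177 ± 0.0805 CPM with the combination, at least 4.14-fold higher when 3 counts per library are taken as the floor. Hap1, a huntingtin-associated transport protein, was at 209, 213, 171, 231 and 200 CPM with the combination against 38.1 to 60.3 CPM. Not all genes of this list moved: Agrp (0.09 ± 0.19) and Hcrtr2 (−0.01 ± 0.24), the peptide of hunger neurons and an orexin receptor, did not pass the test.

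Imprinted neuronal genes had 15 of 22 members raised and 0 lowered (median 0.54), and 9 raised without the 3 deepest combination libraries. Besides Magel2 they included Dlk1, a Notch-family ligand, at 4.97 to 47.1 CPM with the combination and 0.261 to 1.72 CPM in the other 10, and Ndn, a MAGE gene of the Prader-Willi region, at 125 to 224 CPM against 61.8 to 124 CPM. Nnat, a small membrane protein, rose by 1.33 ± 0.36 on the log2 scale. Of the list of Prader-Willi region and MAGE genes, 8 of 14 were raised, among them Maged1 (0.38 ± 0.042), and 2 were lowered, Ube3a (−0.44 ± 0.058) and Usp7 (−0.13 ± 0.036), with 1 lowered without the 3 deepest combination libraries. Usp7, though listed, is neither a MAGE gene nor in that region. Ube3a, a ubiquitin ligase, has an antisense transcript whose reads cannot be told apart without strand. The neighbouring Snrpn was at −0.12 ± 0.049 and did not pass. In the fit over 25 libraries with the hypothalamus score, 0 of all genes were called, and so 0 of either list.

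Receptors of the class B family, which bind peptide hormones, changed in both directions, 6 raised and 3 lowered of 16. Besides Glp1r, the raised ones included Crhr2, a receptor of urocortins, at 2.29 to 3.78 CPM with the combination and 0.142 to 1.09 CPM elsewhere, and Adcyap1r1, the PACAP receptor, at 292 to 326 CPM against 204 to 231 CPM. Glp2r, the receptor of the sister peptide of GLP-1, fell by 0.92 ± 0.15 on the log2 scale and Crhr1, the main corticotropin-releasing hormone receptor, by 0.42 ± 0.078. Gipr, the other incretin receptor, was at 0.06 ± 0.16 and did not pass. Glp1r thus rose while Glp2r fell and Gipr did not pass the test.

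Downstream of such receptors, 8 of 26 genes of incretin and cAMP signalling were raised and 5 lowered, with a median of 0.05, and 5 were raised without the 3 deepest combination libraries. Adcy1, the calcium-stimulated adenylyl cyclase, was at 807 to 1210 CPM with the combination and 1790 to 2200 CPM elsewhere (−0.93 ± 0.11). Adcy5, the cyclase typical of striatum, rose by 0.75 ± 0.094. Creb1 (−0.15 ± 0.11) did not pass the test.

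Of the RGS proteins and partners of the Rgs6 subfamily, 8 of 21 were raised and 3 lowered, or 3 and 1 without the 3 deepest combination libraries. Rgs9, the striatal relative of Rgs6, was at 185 to 300 CPM with the combination, within reach of the 94.8 to 255 CPM of the others (0.70 ± 0.14), and Rgs12 at 53.4 to 63.5 CPM against 30.7 to 41.8 CPM (0.67 ± 0.099). Rgs11 (−0.41 ± 0.089) and the membrane anchor gene Rgs7bp (−0.20 ± 0.068) fell with Rgs6. Rgs7 (−0.11 ± 0.062) and the obligate partner Gnb5 (0.06 ± 0.11) did not pass.

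The Vat1 relative Vat1l was also raised (1.62 ± 0.18), at 109 to 167 CPM against 34.7 to 66.5 CPM. The mitofusin genes Mfn1 (−0.09 ± 0.055) and Mfn2 (−0.05 ± 0.052), whose products join mitochondria, did not pass. In this list of 13 genes, 2 were raised and 2 lowered, and 1 was lowered when any of 5 single libraries was left out (vestitol 4, salviolone 2, or combination 1, 4 or 5) or when the 3 deepest combination libraries were. Of 13 olfactomedin-family genes 3 were raised and 3 lowered, among them Olfm2 (−0.57 ± 0.11) at 69.5 to 82.9 CPM against 102 to 130 CPM.

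**Figure D4:**
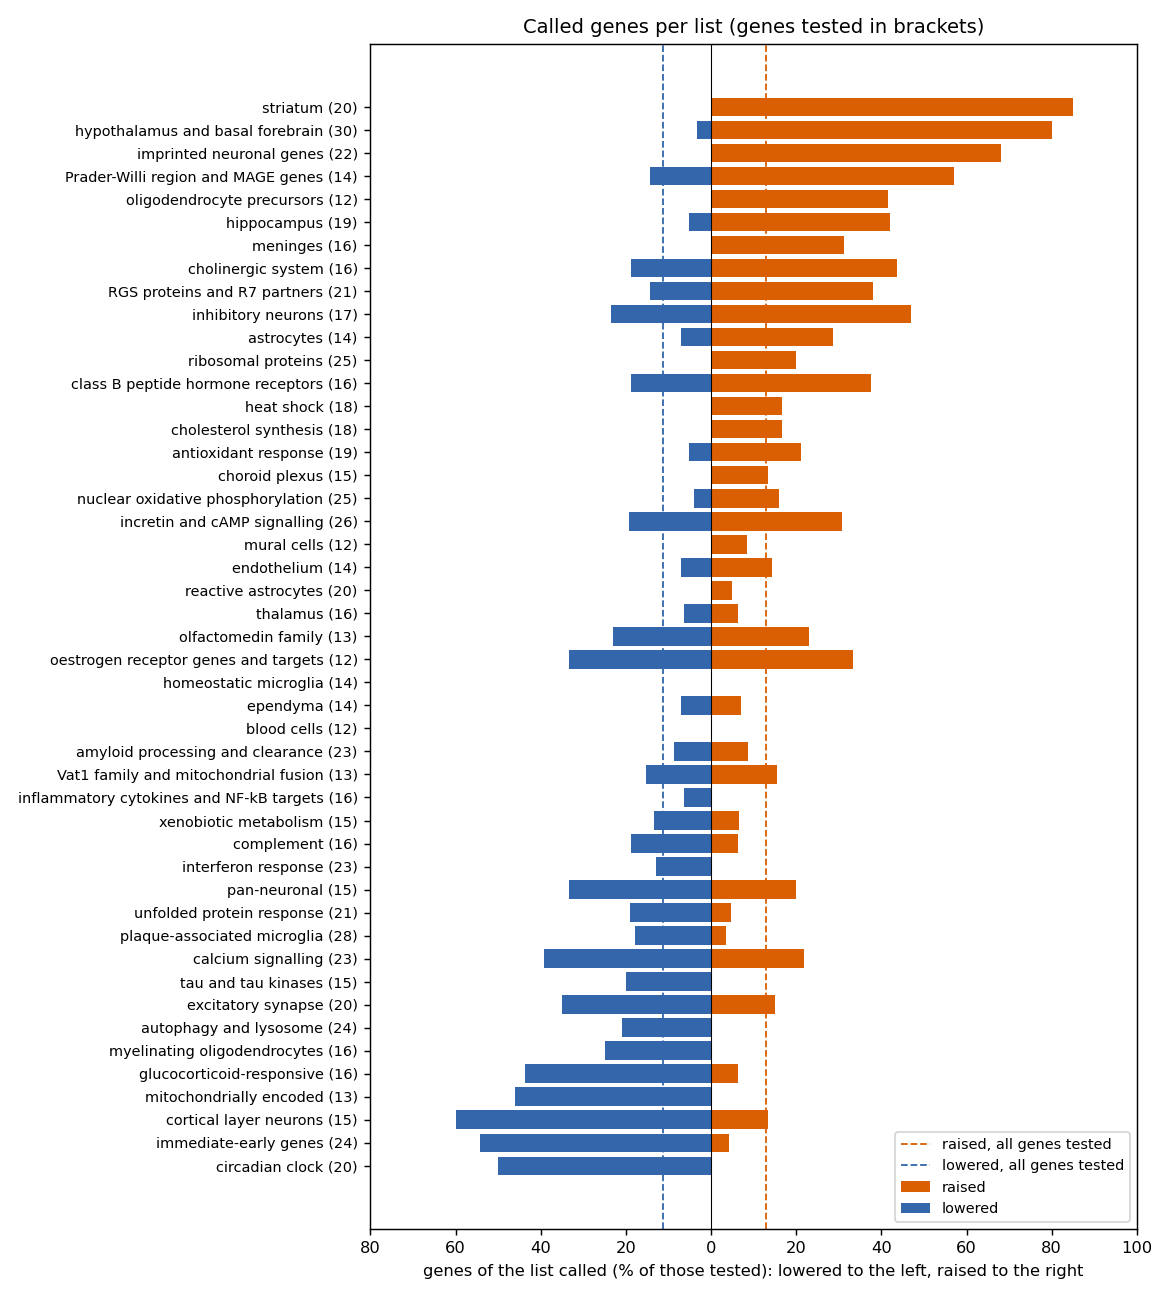
Share of each gene list, other than the 5 leading genes and the 3 genes tied to the transgenes, called lower (blue, to the left) and higher (orange, to the right) with the combination, in percent of the genes tested, given in brackets. Dashed lines mark the 12.9% raised and 11.2% lowered over all genes; of the lists drawn, hypothalamus, striatum and imprinted lists reach furthest right, and cortical layer, immediate-early and clock lists furthest left.

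Regional neuron markers were called in both directions. Of 15 cortical layer genes 9 were lowered and 2 raised (median −0.27), and 4 were lowered without the 3 deepest combination libraries. Fezf2, a factor of deep-layer neurons, was at 17.5, 15.4, 18.5, 12.2 and 11.9 CPM with the combination and at 22.8 to 39.1 CPM in the other 10, a log2 fold change of −0.99 ± 0.15 without overlap. The direction was not shared by all, since Nxph4 (1.39 ± 0.18) and Bcl11b (0.45 ± 0.082) rose.

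Of 20 striatal genes 17 were raised and 0 lowered (median 0.76), including Penk, which encodes enkephalin, at 315 to 492 CPM against 90.8 to 304 CPM, and the adenosine receptor gene Adora2a (1.11 ± 0.14). The striatal score was 6.27 to 6.85 with the combination, 5.78 to 6.48 with vestitol and 5.37 to 5.75 with salviolone, so it overlapped with vestitol only. Of 19 hippocampal genes 8 were raised and 1, Neurod6, lowered. The striatal score was in the fit with 4 tissue scores (hypothalamus, striatum, thalamus and choroid plexus), in which 0 genes were called. No hippocampal score was in any fit, so the part of those genes in the other results was not tested.

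Inhibitory neuron genes were called in both directions. Gad2, Slc32a1 (the vesicular GABA transporter, 0.61 ± 0.072), Sst (0.47 ± 0.074) and Calb2 (2.20 ± 0.28) were among 8 raised of 17, while Pvalb (−0.91 ± 0.22), Vip (−0.71 ± 0.091), Npy and Cck were lowered, and 2 were lowered without the 3 deepest combination libraries. Pvalb, which encodes parvalbumin of fast-spiking cells, was at 28.0 to 52.4 CPM with the combination and at 63.1 to 107 CPM elsewhere.

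Cholinergic genes that mark the neurons themselves were raised. Chat, which makes acetylcholine, was at 18.9, 12.6, 12.3, 21.4 and 19 CPM with the combination, at 6.16, 5.55, 4.54, 10.2 and 5.42 CPM with vestitol, and at 3.15, 5.18, 3.24, 5.01 and 3.99 CPM with salviolone, without overlap. Its log2 fold change was 1.72 ± 0.20 (adjusted p = 3.33e-06, edgeR). Slc5a7 (1.59 ± 0.24) and Slc18a3 (1.65 ± 0.26), which take up choline and load acetylcholine into vesicles, and the neurotrophin receptor gene Ngfr (2.35 ± 0.34) rose too. Receptors did not follow in 1 direction: Chrm3 (−0.67 ± 0.13), Chrna4 (−0.32 ± 0.10) and Chrna5 (−1.21 ± 0.28) fell and Chrna7 (0.30 ± 0.075) rose. In all, 7 of 16 cholinergic genes were raised and 3 lowered, with 0 lowered without the 3 deepest combination libraries. In the fit over 25 libraries with the hypothalamus score, Chat was at 0.89 ± 0.32 (adjusted p = 0.578).

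Among activity-induced and hormone-induced genes more were lowered than raised. Of 24 immediate-early genes 13 were lowered and 1, Jun, raised (median −0.58). Without the 3 deepest combination libraries 5 were lowered, while the lowered count over all genes went from 1846 to 849. Arc, a synaptic capsid-like protein, was at 170, 227, 154, 205 and 212 CPM with the combination, at 766, 247, 422, 197 and 310 CPM with vestitol and at 420 to 619 CPM with salviolone. Vestitol library 4 lay within the combination's range, and vestitol library 1 was highest of all. The log2 fold change was −1.21 ± 0.30 (adjusted p = 0.00471, edgeR). Egr1 was at 247 to 301 CPM against 315 to 651 CPM and Npas4 at 23.8 to 38.6 CPM against 38.7 to 87.1 CPM, both without overlap, whereas Jun rose by 0.63 ± 0.12 on the log2 scale.

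Of 16 glucocorticoid-responsive genes 7 were lowered, led by Zbtb16 (−1.10 ± 0.20) and Sgk1 (−0.82 ± 0.19), and 1 was raised, Fkbp5 (0.26 ± 0.076), a call lost without combination library 2 or 3. Of 20 clock genes 10 were lowered and 0 raised, and 6 were lowered without combination library 4. Without the 3 deepest combination libraries, 3 glucocorticoid-responsive genes and 1 clock gene were lowered, beside 849 of all genes (1846 with those libraries). Hlf, a clock-output transcription factor, was at 188 to 250 CPM against 367 to 423 CPM (−0.87 ± 0.12), while the core genes Arntl (0.15 ± 0.074) and Clock (0.06 ± 0.15) did not pass. The time of day of tissue collection is not given in the sources used here. When the hypothalamus score was in the fit over 25 libraries, 0 of all genes were called, and so 0 of these 3 lists. Their medians there were −0.08 (immediate-early), −0.06 (glucocorticoid) and 0.10 (clock). Without the score, the medians of the combination against the model control were −0.66 (immediate-early), −0.10 (glucocorticoid) and −0.16 (clock). Those of the mean of both compounds against the model control were −0.11, 0.20 and 0.10 in the same order.

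**Figure D5:**
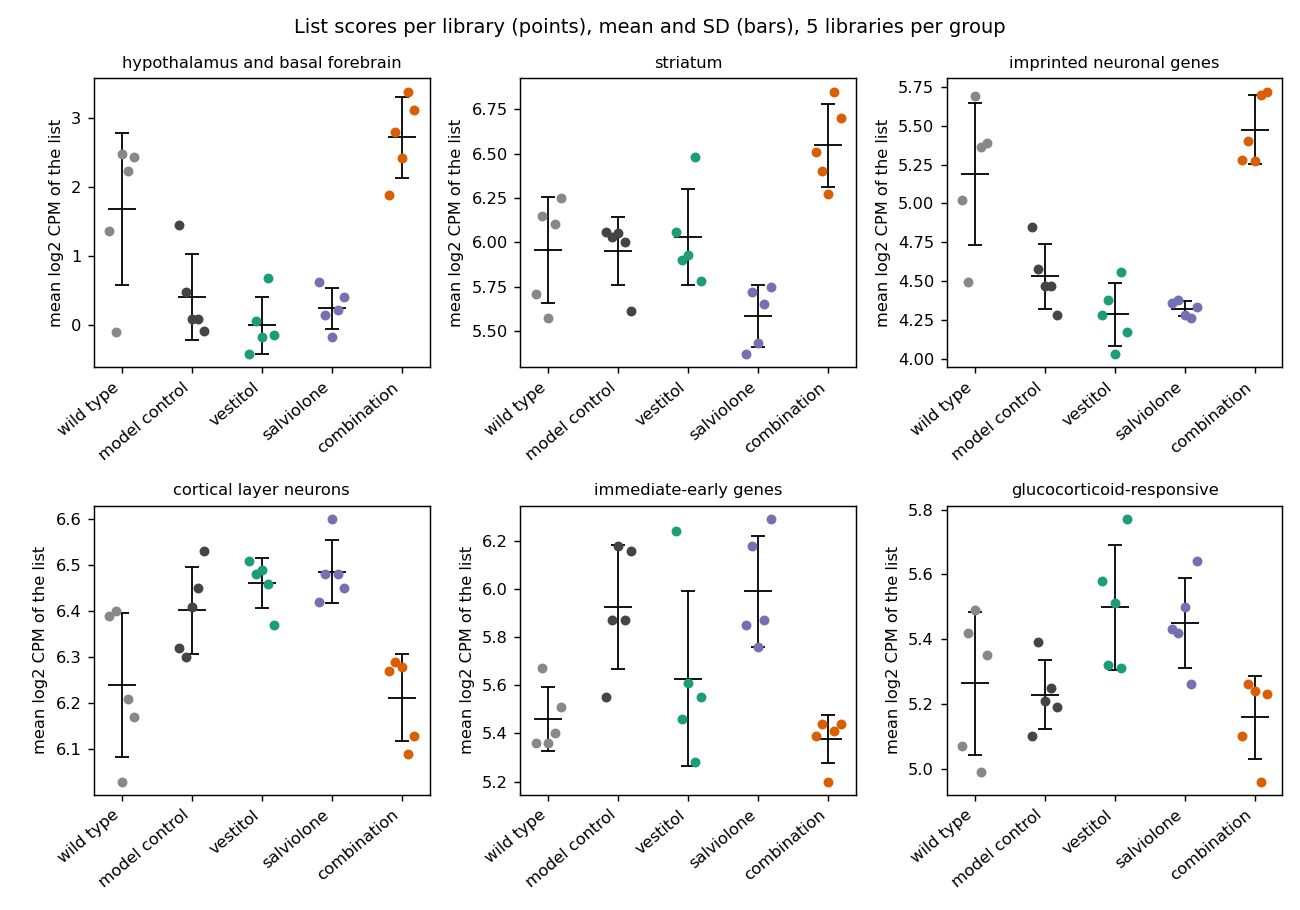
Mean log2 CPM of the genes of 6 lists in each library (points) of each group, with the group mean and SD (bars). Combination libraries lie above all single-compound libraries for the hypothalamus list, 1.88 to 3.38 against −0.41 to 0.68, and for the imprinted list, and below them for cortical layer genes; the striatal, immediate-early and glucocorticoid panels lie closer together.

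Of 28 genes of plaque-associated microglia 5 were lowered and 1 raised, with a median of −0.26. Csf1 (−0.36 ± 0.086), Ctsz (−0.34 ± 0.086), Ank, Cd9 and Ctsb fell and Lpl (0.51 ± 0.14) rose, the latter not without combination library 1. Trem2, the microglial lipid receptor, was at 12.6 to 24.2 CPM with the combination and 18.9 to 31.8 CPM elsewhere (−0.28 ± 0.14, adjusted p = 0.154, edgeR), and Clec7a was at −0.56 ± 0.40. Of 14 homeostatic microglial genes 0 were called. Against the model control, the median of the plaque-associated list was −0.06 for the combination and 0.14 for the mean of both compounds.

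Of 23 genes of amyloid processing and clearance 2 were raised and 2 lowered, with 1 lowered without the 3 deepest combination libraries. Ece2, an amyloid-degrading endothelin-converting enzyme, was at 61 to 77.6 CPM with the combination against 23.4 to 37.8 CPM (1.10 ± 0.16), without overlap. Mme, which encodes the amyloid-degrading protease neprilysin, rose by 0.74 ± 0.19, but vestitol at 4.66 to 9.35 CPM overlapped the combination at 6.55 to 11.2 CPM, and salviolone was lower at 3.03 to 5.00 CPM. Sorl1, a sorting receptor of the amyloid precursor, was at 466 to 621 CPM against 663 to 802 CPM (−0.50 ± 0.091), and Ide, insulin-degrading enzyme, at 44.3 to 47.5 CPM against 50.6 to 56.9 CPM (−0.19 ± 0.045). The secretase gene Bace1 (0.04 ± 0.20) did not pass.

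App itself was 0.20 ± 0.065 lower on the log2 scale (adjusted p = 0.0223, edgeR), at 3440 to 4170 CPM against 3740 to 5070 CPM with overlap. App and Prnp were the 2 lowered of 3 genes tied to the transgenes, and none was called without combination library 1 or 5 or without the 3 deepest combination libraries. Leaving out vestitol library 1 or 3, salviolone library 2, 3, 4 or 5, or combination library 2 or 4 left 1 called. The summed level of the 3 genes was 2051 to 2522 CPM in wild type and 5642 to 6681 CPM in the model control. It was 4935 to 6063 CPM with the combination, 5450 to 6551 with vestitol and 5742 to 7145 with salviolone. The counts are under mouse gene names, and how far they hold reads of the human transgenes was not tested. The App level above is thus not that of the mouse gene alone by any check made here.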

How the data were processed

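The authors deposited raw read counts per gene and, separately, FPKM values, for 25 cortex libraries; per the submitters' processing notes, reads were trimmed with Trim Galore and aligned with STAR to mm39, and neither the counting tool, its strand setting nor any version is named there. The deposited counts held more small multiples of 4 than an even spread would give (44.3% of values from 4 to 39, against 25%), for a reason not known here. Groups came from the sample labels. In R 4.3.3, edgeR 4.0.16 (TMM factors 0.98 to 1.04, filterByExpr with a minimum count of 10, robust quasi-likelihood fit with 1 coefficient per group over all 25 libraries) tested the combination minus the mean of vestitol and salviolone on the log scale, two-sided, with Benjamini-Hochberg adjustment over 16515 genes. Genes in the table at 0 in every library numbered 2769. CPM values use TMM-scaled library sizes. The procedure was tested on simulated data. Some items are not reported here. The members and gene lists were chosen with earlier results of these data known. Genes named as leading are Magel2, Glp1r, Vat1, Rgs6 and Olfml2b, up to 15 called list members ranked by adjusted p, and, in each direction, the first 12 called genes in that ranking whose average log2 CPM reached 0, predicted genes left out; other list genes were picked as examples after their values were seen. Of 841 distinct list names 819 were tested; a list score is the mean log2 CPM with a prior count of 2. Alternatives included DESeq2 1.42.0, limma 3.58.1 on log2(FPKM + 0.1) and log2(FPKM + 1) of the deposited FPKM values, other filters and scalings, leaving out libraries, and tissue scores as covariates; the hypothalamus score on the 15 libraries alone was added after the data were seen. No pairing of the samples by replicate number was seen. Promoters came from a RefSeq table in GRCm38.p6, a build other than that of the counts, so no coordinate was moved between builds.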

Additional observations from a re-analysis of the deposited data

Results flagged for a closer look

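Single libraries that stood far from the other 4 of their group were looked for in 240 groups of values, and 19 were found; chance gives about 1 in 20 groups. With the combination, library 3 was high for Rgs6 at 71.4 CPM (others 52.7 to 56.9) and low for the immediate-early score at 5.2 (others 5.39 to 5.44). Library 2 was high for the calcium signalling score at 7.76 (others 7.73 to 7.74) and low for the mitochondrially encoded score at 7.41 (others 7.67 to 7.76). Library 5 was low for the oestrogen receptor score at 3.76 (others 4.15 to 4.21).

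With vestitol, library 4 stood apart in 6 measures. It was low for Olfml2b at 11 CPM (others 13.9 to 15) and high for Gad2 at 261 CPM (others 183 to 203), Chat at 10.2 CPM (others 4.54 to 6.16), Ryr3 at 148 CPM (others 102 to 112), Vat1l at 66.5 CPM (others 34.7 to 43.6) and the cholinergic score at 3.53 (others 3.3 to 3.34). In each of the 5 genes it was the vestitol library nearest to the combination. It also had the highest hypothalamus score of the vestitol libraries, 0.68 (others −0.41 to 0.06), and the highest striatal score, 6.48 (others 5.78 to 6.06). Its thalamus score, 3.14, was at the low end (others 3.14 to 4.08). Whether these scores go with the gene levels was not tested. Elsewhere in that group Susd2 was at 16.3 CPM in library 3 (others 11.7 to 12.5), the thalamus score at 4.08 in library 2 (others 3.14 to 3.25) and the reactive astrocyte score at 3.04 in library 5 (others 2.15 to 2.38).

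With salviolone, library 1 was low for Asic4 at 14.7 CPM (others 18.7 to 19.4), low for the calcium signalling score at 7.67 (others 7.73 to 7.75) and high for the choroid plexus score at 1.44 (others −1.14 to −0.43). The reactive astrocyte score was 2.61 in library 2 (others 2.32 to 2.38) and the tau and tau kinase score 7.64 in library 3 (others 7.73 to 7.76).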

How the results depend on the processing

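The count of 3972 genes for the combination against the mean of both compounds fell to 0 with the hypothalamus score or with 4 tissue scores as covariates, to 114 with the hypothalamus score on the 15 libraries, to 2423 with log2 total count as a covariate, to 2016 without the 3 deepest combination libraries (fewer samples) and to 1155 with a 1.2-fold minimum in the test. Under the other settings run it was within 1.5 times. Adding the hypothalamus score, the comparison with vestitol called 15 genes (3609 without), with salviolone 0 (2954) and with the model control 0 (2471). Vestitol against the model control called 44 by DESeq2, and the mean of both compounds 35. Salviolone against the model control called 4, but 0 with RLE size factors, 0 with no filter, 116 by DESeq2, 29 with the replicate block and 11 with the hypothalamus score. Why these counts moved was not tested. Leaving out 1 library at a time gave 3228 to 3906 genes for the main contrast, 2863 to 3429 against vestitol, 2327 to 2856 against salviolone, 1812 to 2588 against the model control, 0 to 2 for vestitol, 0 to 30 for salviolone and 0 to 0 for the mean of both against the model control. With the replicate block the main contrast called 3978 genes. Same-numbered samples deviated together with a median correlation of 0.015 (range −0.07 to 0.091 over 15 pairs). No pairing by number was seen, though a small shared effect could go unseen, and the block is a check only. Depth limits genes of low count, such as Pmch, Oxt, Otp, Cyp19a1 and Ghrh, which were at 0 in 4 to 10 of the 10 single-compound libraries.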

Other observations

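Genes of sex-steroid signalling were called in both directions. Of 12 oestrogen receptor genes and targets 4 were raised and 4 lowered. Esr1, oestrogen receptor alpha, was at 2.98 to 4.36 CPM with the combination and 0.767 to 2.92 CPM in the other 10 (log2 fold change 1.57 ± 0.33). Esr2, oestrogen receptor beta, was at 0.866 to 2.00 CPM against 0 to 0.51 CPM (3.20 ± 0.63). Cyp19a1, aromatase, was seen in 1 of the 10 single-compound libraries, at 0.0654 CPM, and in 4 of 5 combination libraries, at 0.294 to 0.642 CPM. Pgr, the progesterone receptor, fell by 0.54 ± 0.10 and Igf1r by 0.32 ± 0.05 on the log2 scale. Once the hypothalamus score was in the fit over 25 libraries, 0 of all genes were called, and so 0 of the 12.

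Genes encoded by the mitochondrial genome had unlike levels in the vestitol and salviolone libraries, a difference that was not tested. The mean log2 CPM of 13 such genes was 8.31 ± 0.09 with vestitol, 7.54 ± 0.22 with salviolone and 7.65 ± 0.13 with the combination (SD, n = 5), and 7.97 ± 0.24 in the model control. Against the mean of both compounds 6 of 13 were lowered and 0 raised, led by mt-Co3 (−0.48 ± 0.10), a cytochrome oxidase subunit. By DESeq2 10 of the 13 were lowered, beside 2176 of all genes (1846 in edgeR). In the combination libraries mt-Co3 was at 80.2 to 98.4 CPM, within the 79.9 to 117 CPM of salviolone and below the 164 to 211 CPM of vestitol. Of the 15 genes called against vestitol with the hypothalamus score, 9 were mitochondrially encoded. Reads from nuclear copies of these genes could be assigned either way.

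Oligodendrocyte genes were called in opposite directions by stage. Of 12 precursor genes 5 were raised and 0 lowered, among them Pdgfra (0.45 ± 0.081) at 73.1 to 87.4 CPM against 52.1 to 64.7 CPM. Of 16 myelin genes 4 were lowered and 0 raised, and 1 was lowered without combination library 1 or 2, and 2 without combination library 4, vestitol library 4 or 5, or salviolone library 1 or 2. DESeq2 called 9 of the 16 myelin genes lowered, beside 2176 of all genes (1846 in edgeR). The hypothalamus score left 0 lowered and a median of −0.46 over 25 libraries, where 0 of all genes were called. Over the 15 alone, 4 myelin genes were lowered, of 35 lowered in all, with a median of −0.95. Among the 114 genes called in that fit were Trp53i11 (1.44, adjusted p = 2.49e-05, edgeR), Nptxr (1.34, adjusted p = 0.000206) and Nrp2 (1.70, adjusted p = 0.000877); they were chosen after their values were seen, and their levels without the score were 123, 1090 and 100 CPM with the combination against 58.4, 730 and 26.4 CPM with vestitol.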
